A study of Mus musculus with 15 samples.

Results

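The collagen chains of skin were followed in a mouse study of the channel TRPV3. They are the protein-coding genes whose symbol reads Col, a number, a and a number, and 44 of the 54532 genes of the skin table met that rule. Their RNA was read in 12 skin libraries of 4 groups of 3, which were skin labelled Trpv3-knockout given MC903 for 7 days, skin labelled Trpv3-knockout without treatment, wild type skin given MC903 for 7 days and wild type skin without treatment. MC903, also named calcipotriol, is related to vitamin D, inflames mouse skin and serves to model atopic dermatitis. TRPV3 is a cation channel that opens with warmth and is known mainly from keratinocytes. Conditional knockouts are named in the text of the series, and the sample labels give neither the cells that lose the gene, the age, the strain nor the body site. The untreated groups have no vehicle in their labels, so a vehicle cannot be told apart from MC903. Nothing in the labels ties the libraries to single mice, so a p-value here weighs a difference only against the spread of libraries within groups, which may be technical. That spread was pooled over the 4 groups and not taken from the groups compared alone.

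Most collagens are secreted proteins, whose chains wind around each other into a rope-like helix, in molecules of one kind of chain or of several. Types I, III and V form the banded fibrils that give dermis its strength, and fibroblasts make most of them. Types II, IX and XI form the thin fibrils of cartilage. Type IV is the mesh of every basement membrane, the sheet under epithelia and around vessels, muscle fibres and nerves. Types VII and XVII tie epidermis to dermis and are made largely by keratinocytes.

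The libraries held 16869716 to 18485698 reads in genes, and the values are FPKM as deposited, which are fragments scaled by gene length and by a denominator of each library. That denominator was not the total of reads. It ranged from 0.917 times that total (MC903 wild type replicate 1) to 1.11 times (untreated wild type replicate 2). The targeted gene Trpv3 had an FPKM of 6.82, 6.78 and 4.73 in MC903 libraries labelled knockout, 3.17, 3.64 and 2.62 in untreated libraries labelled knockout, 16.1, 17.0 and 19.0 in MC903 wild type and 2.06, 2.71 and 1.13 in untreated wild type. Its RNA was therefore not lower in untreated skin labelled knockout (0.61 ± 0.22 on the log2 scale, limma adjusted p = 0.1). After MC903 it was lower in skin labelled knockout than in wild type (-1.45 ± 0.22, limma adjusted p = 0.00032). The genotype is given as labelled. Keratinocyte markers were present in every group, which fits the tissue label, with a summed FPKM over 6 markers of 4596 to 6568, 4837 to 5533, 15399 to 23968 and 2812 to 3688 in the same order of groups. Every log2 fold change below was taken on log2(FPKM + 0.5), a scale that understates changes of low genes, and stands with its standard error (SE). A gene was called at a limma adjusted p below 0.05, adjusted over the 17646 genes tested. Of the chains 39 passed the filter for that test, an FPKM of at least 0.5 in at least 3 libraries. Scaling each library to the same FPKM sum (TPM) instead moved the median of all genes by -0.38 for MC903 in wild type, by -0.16 for MC903 in skin labelled knockout and by 0.23 for the genotypes after MC903. Scaling by total reads moved it by -0.17 in the first of these. Relative to these shifts, the share of called genes that were higher with MC903 in wild type was 51.8% as deposited, 26.7% with TPM and 40.0% with total reads, and in skin labelled knockout it was 52.1%, 33.6% and 45.2%. Between genotypes it was 49.8%, 73.5% and 57.4% after MC903, and 61.1%, 65.8% and 49.7% untreated.

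The promoters of 6 chains are shown because they belong to the groups whose RNA behaved differently below: 2 chains of dermal fibrils, the head-to-head pair of type IV genes and the 2 anchoring chains. Each is the 300 bases from 250 before to 50 after a RefSeq start (build GRCm38.p6), read 5′ to 3′ on the strand of the gene, and capitals mark every match of TATAAA or CCAAT or GGGCGG on either strand. RefSeq windows were found for 35 of the 44 chains.
Col1a2 (chr6:4505368-4505667, plus strand): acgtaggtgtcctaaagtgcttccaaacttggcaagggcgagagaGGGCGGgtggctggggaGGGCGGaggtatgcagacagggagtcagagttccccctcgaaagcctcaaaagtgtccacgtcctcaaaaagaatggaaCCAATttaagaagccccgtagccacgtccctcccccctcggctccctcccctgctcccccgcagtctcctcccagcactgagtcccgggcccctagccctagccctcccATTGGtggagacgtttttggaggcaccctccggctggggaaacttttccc
Col3a1 (chr1:45311288-45311587, plus strand): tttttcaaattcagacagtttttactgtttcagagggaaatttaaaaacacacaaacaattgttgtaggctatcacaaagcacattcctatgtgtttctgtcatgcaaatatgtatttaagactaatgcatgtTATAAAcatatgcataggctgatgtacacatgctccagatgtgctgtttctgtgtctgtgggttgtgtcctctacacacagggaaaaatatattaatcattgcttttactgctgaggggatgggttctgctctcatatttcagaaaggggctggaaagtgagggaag
Col4a1 (chr8:11312777-11313076, minus strand): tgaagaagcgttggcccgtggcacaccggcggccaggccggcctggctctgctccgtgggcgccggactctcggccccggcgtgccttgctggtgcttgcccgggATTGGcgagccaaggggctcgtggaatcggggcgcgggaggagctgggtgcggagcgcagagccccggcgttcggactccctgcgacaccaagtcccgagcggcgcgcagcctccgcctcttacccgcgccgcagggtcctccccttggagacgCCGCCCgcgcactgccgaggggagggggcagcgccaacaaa
Col4a2 (chr8:11312555-11312854, plus strand): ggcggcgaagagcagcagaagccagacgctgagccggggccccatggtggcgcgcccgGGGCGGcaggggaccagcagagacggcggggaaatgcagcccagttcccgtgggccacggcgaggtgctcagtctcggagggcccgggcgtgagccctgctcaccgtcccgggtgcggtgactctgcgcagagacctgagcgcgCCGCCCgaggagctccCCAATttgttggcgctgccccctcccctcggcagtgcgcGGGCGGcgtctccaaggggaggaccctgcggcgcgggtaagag
Col7a1 (chr9:108953336-108953635, plus strand): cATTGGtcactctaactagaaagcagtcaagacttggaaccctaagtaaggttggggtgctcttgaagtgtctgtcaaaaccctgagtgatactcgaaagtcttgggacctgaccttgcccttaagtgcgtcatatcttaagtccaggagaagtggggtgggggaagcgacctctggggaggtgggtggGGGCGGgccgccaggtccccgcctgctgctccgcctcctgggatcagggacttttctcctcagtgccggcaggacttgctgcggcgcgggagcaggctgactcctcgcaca
Col17a1 (chr19:47691993-47692292, minus strand): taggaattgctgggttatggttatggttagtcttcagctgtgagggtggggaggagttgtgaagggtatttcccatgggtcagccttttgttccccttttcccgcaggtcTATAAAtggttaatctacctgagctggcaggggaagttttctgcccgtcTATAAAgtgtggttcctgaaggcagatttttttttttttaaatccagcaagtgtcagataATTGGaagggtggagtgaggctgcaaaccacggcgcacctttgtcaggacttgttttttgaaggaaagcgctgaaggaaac
The RefSeq start used for the Col1a2 window lies 804 bases inside the gene start given with the deposited values, and that for Col17a1 lies 52 bases inside. The motif GGGCGG, which SP1-like factors can bind, was in 22 of the 35 windows (62.9%), against 35.7% of all 32851 RefSeq windows of that length. CCAAT was in 12 of 35 (34.3%) against 37.4%, and TATAAA in 5 of 35 (14.3%) against 13.6%. The motif TGANTCA, where N is any base, was in 1 of 35 (2.86%) against 7.81%, and it was in none of the 6 windows shown. A match describes the letters of a window and not a bound site. The Col4a1 and Col4a2 windows share 78 bases, since the genes (mm10 chromosome 8, 11198423 to 11312826 and 11312805 to 11449287) run in opposite directions and overlap by 22 bases. The other type IV genes are also head to head, with 71 bases between Col4a4 and Col4a3 on chromosome 1 and 1308 between Col4a6 and Col4a5 on the X chromosome. Col3a1 and Col5a2 lie tail to tail on chromosome 1, 24614 bases apart.

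The chains spanned a wide range of levels, and 3 genes of dermal fibrils led in every untreated library. In untreated skin labelled knockout Col1a1, Col3a1 and Col1a2 averaged 1590.5 ± 118, 1308 ± 111 and 898 ± 79.4 FPKM (SD, n = 3 here and throughout), against 298 ± 143, 275 ± 96.3 and 207 ± 77.7 in untreated wild type. Summed over all 44 chains the level was 1767 to 2231 FPKM in MC903 skin labelled knockout and 5311 to 6121 in untreated skin labelled knockout. In wild type it was 642 to 759 after MC903 and 1161 to 2303 untreated. Untreated skin labelled knockout thus held the highest sums and MC903 wild type skin the lowest, with no overlap between groups except that MC903 skin labelled knockout lay within the wide range of untreated wild type. The 6 fibrillar dermal chains made up 60.5% to 63.6% of all collagen FPKM in MC903 skin labelled knockout, 69.7% to 71.9% in untreated skin labelled knockout, 46.1% to 51.1% in MC903 wild type and 45.4% to 51.8% in untreated wild type. The 2 anchoring chains stood out in MC903 wild type skin, at 15.4% to 20.8% of collagen FPKM there, against 2.82% to 6.67% in untreated wild type, and at 1.79% to 3.02% and 1.26% to 1.66% in MC903 and untreated skin labelled knockout. That share also depends on the lower sum of all chains in MC903 wild type. The anchoring chains themselves summed to 114 to 143 FPKM there and 65.0 to 88.1 in untreated wild type. As a share of all FPKM they were 0.0250% to 0.0331% and 0.0200% to 0.0287%, ranges that overlap. FPKM divides by the gene length of the table, which pools all exons (12426 bases for Col1a2 and 6563 for Col1a1), so levels of different genes depend on those models.

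**Figure D1:**
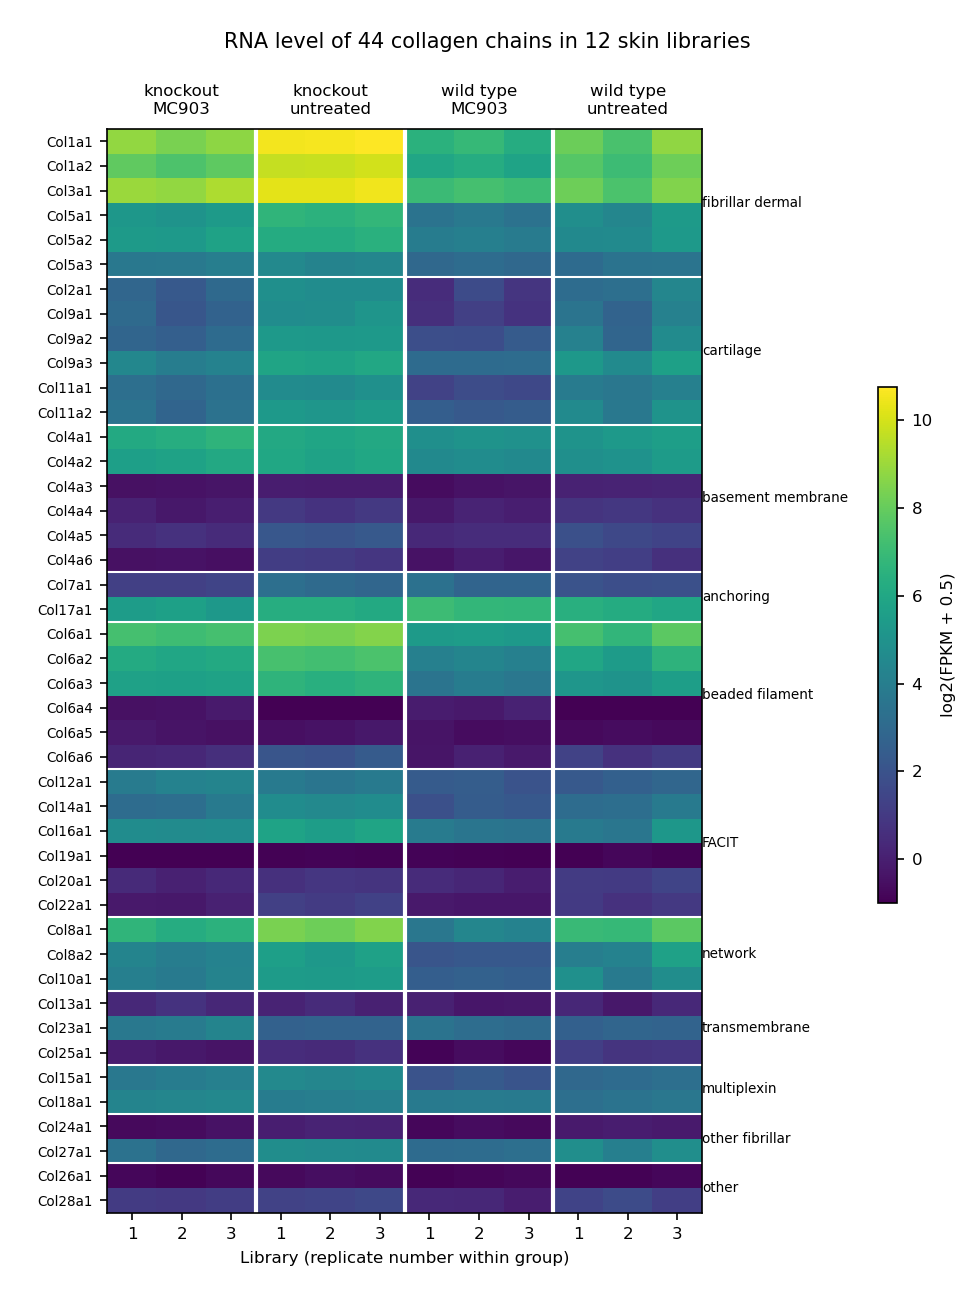
Level of each of the 44 collagen chains (rows, by class) in the 12 skin libraries (columns, by group and replicate) as log2(FPKM + 0.5), dark for low and bright for high. Rows of fibrillar dermal chains are brightest in untreated skin labelled knockout, where Col1a1 averaged 1590.5 FPKM, and untreated wild type replicate 3 is brighter than replicates 1 and 2 in many rows.

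The 5 chains below the filter were Col6a4, Col6a5, Col19a1, Col24a1 and Col26a1, and they were not tested. Col6a4, a type VI chain, had 35, 38 and 63 reads in MC903 skin labelled knockout, against 2, 2 and 1 in the untreated libraries. In wild type it had 61, 53 and 87 reads after MC903 and was listed at 0 in all 3 untreated libraries. The 6 MC903 libraries thus lay above the 6 untreated ones, in a gene that never exceeded 0.608 FPKM. Col24a1, a minor fibrillar chain, read 0.116, 0.138 and 0.248 FPKM in MC903 and 0.483, 0.633 and 0.578 in untreated skin labelled knockout, and 0.0785, 0.145 and 0.109 in MC903 and 0.389, 0.475 and 0.398 in untreated wild type. Col6a5 ranged from 0.112 to 0.369 FPKM over the 12 libraries, Col26a1 from 0.0184 to 0.186 and Col19a1 from 0.00785 to 0.072. One chain that was tested, Col4a3, reached 0.5 FPKM only in the untreated wild type libraries, so it entered the test only through the group in which it was highest. Col4a6 and Col25a1 reached 0.5 FPKM only in untreated libraries, with at most 0.455 and 0.460 FPKM after MC903. The filter thus favoured a fall with MC903 in Col4a6 and Col25a1, and a fall in wild type for Col4a3.

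The genotypes were compared first without treatment, which asks how skin labelled knockout differs at rest. Of the 39 chains tested 24 were higher in untreated skin labelled knockout and 0 lower, against 7.15% of all genes called higher, 4.55% called lower and 11.7% in either direction. The median log2 fold change of the chains was 0.95, against 0.01 over all genes tested. All 6 fibrillar dermal chains were higher (median 2.0), as were 3 of 6 cartilage chains (1.01), 3 of 6 basement membrane chains (0.33), 1 of 2 anchoring chains and 4 of 4 type VI chains tested (1.25). At an unadjusted p below 0.05 limma had 29 higher and 2 lower, and limma voom on recovered reads called 27 higher and 0 lower. When only these 2 groups were fitted 13 chains passed. Leaving out single libraries gave 17 to 28, and 28 passed without untreated wild type replicate 3, whose collagen sum of 2303 FPKM was the highest of its group.

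After MC903 the genotypes differed in both directions by class. Of the 39 chains 29 were higher in MC903 skin labelled knockout and 2 lower, against 25.9% and 26.1% of all genes (52.1% in either direction), and the median was 1.09 against -0.03 over all genes. All 6 fibrillar dermal chains were higher (median 1.70), as were 5 of 6 cartilage chains (1.39), Col4a1 and Col4a2 of the 6 basement membrane chains and 4 of 4 type VI chains (1.85). The 2 chains that were lower were the anchoring chains Col7a1 and Col17a1. This comparison shares libraries with the MC903 comparisons below, as the untreated one does.

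**Figure D2:**
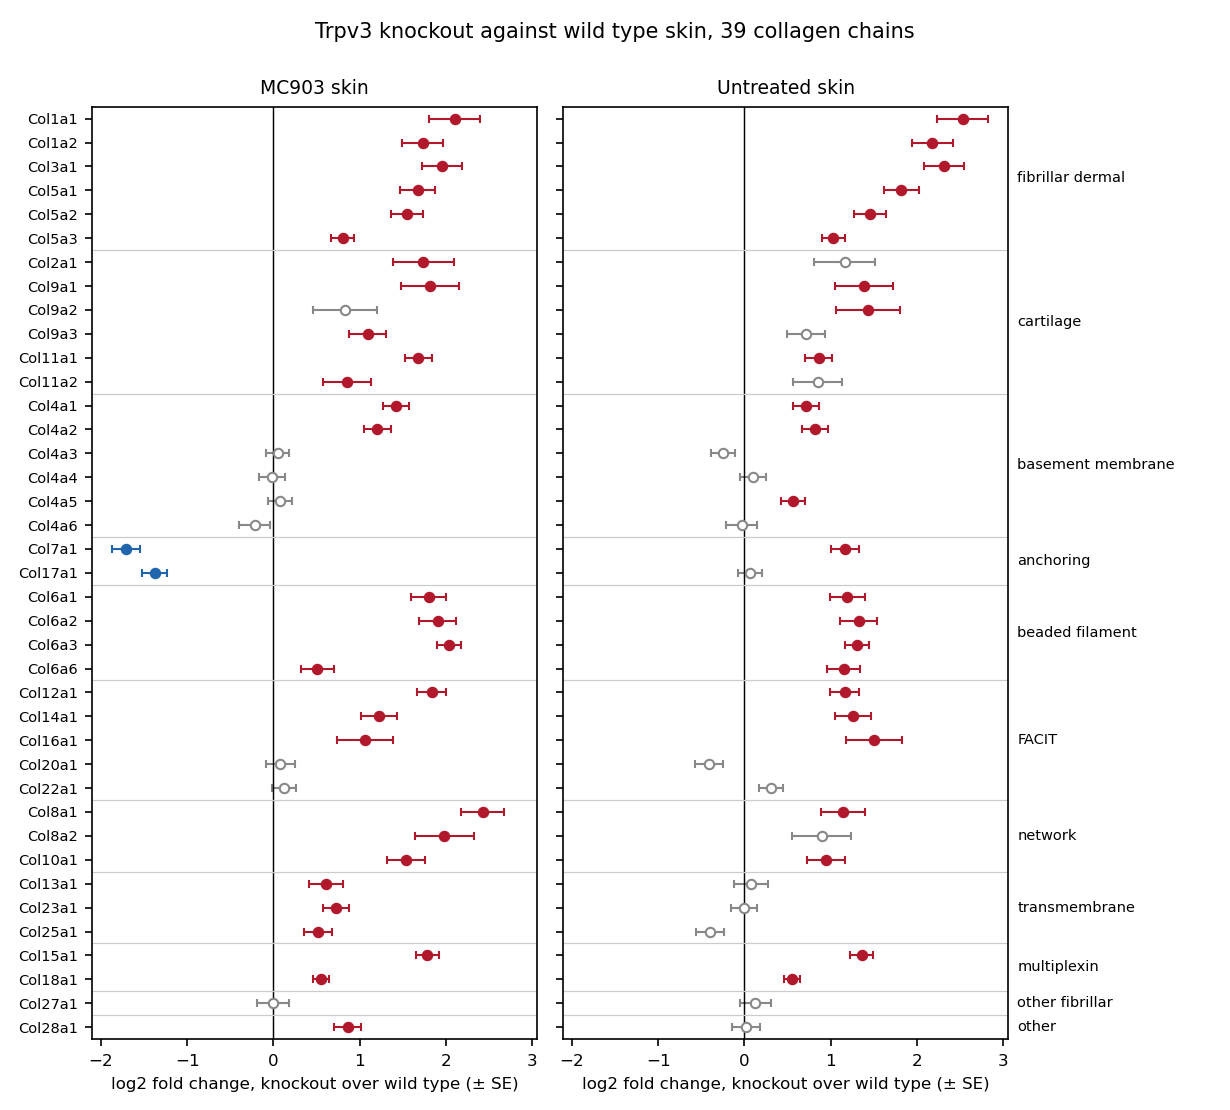
Log2 fold change of skin labelled knockout over wild type, with its SE as bars, for the 39 chains tested, in MC903 skin (left) and in untreated skin (right). Filled points passed at a limma adjusted p below 0.05, red for higher and blue for lower, and open grey points did not pass; fibrillar dermal chains lie right of 0 in both panels and the 2 anchoring chains lie left of 0 in MC903 skin only.

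MC903 was compared with untreated skin within each genotype, which asks what the treatment does to the chains. In skin labelled knockout 31 of 39 chains fell and 2 rose, against 23.0% and 25.0% of all genes (47.9% in either direction), with a median of -1.26 against 0.00 over all genes. In wild type 32 fell and 4 rose, against 30.3% and 32.6% of all genes (63.0% in either direction), with a median of -1.22 against 0.02. The falls include those of Col4a6 and Col25a1, and in wild type that of Col4a3, which entered the test only through untreated libraries. In whole skin, fewer cells of a type and less RNA per cell cannot be told apart. All 6 fibrillar dermal and all 6 cartilage chains fell in each genotype, with class medians of -1.37 and -2.04 in skin labelled knockout and of -1.12 and -2.22 in wild type. The anchoring chains moved apart, with 2 of 2 lower in skin labelled knockout and 2 of 2 higher in wild type. The 2 responses share no libraries.

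**Figure D3:**
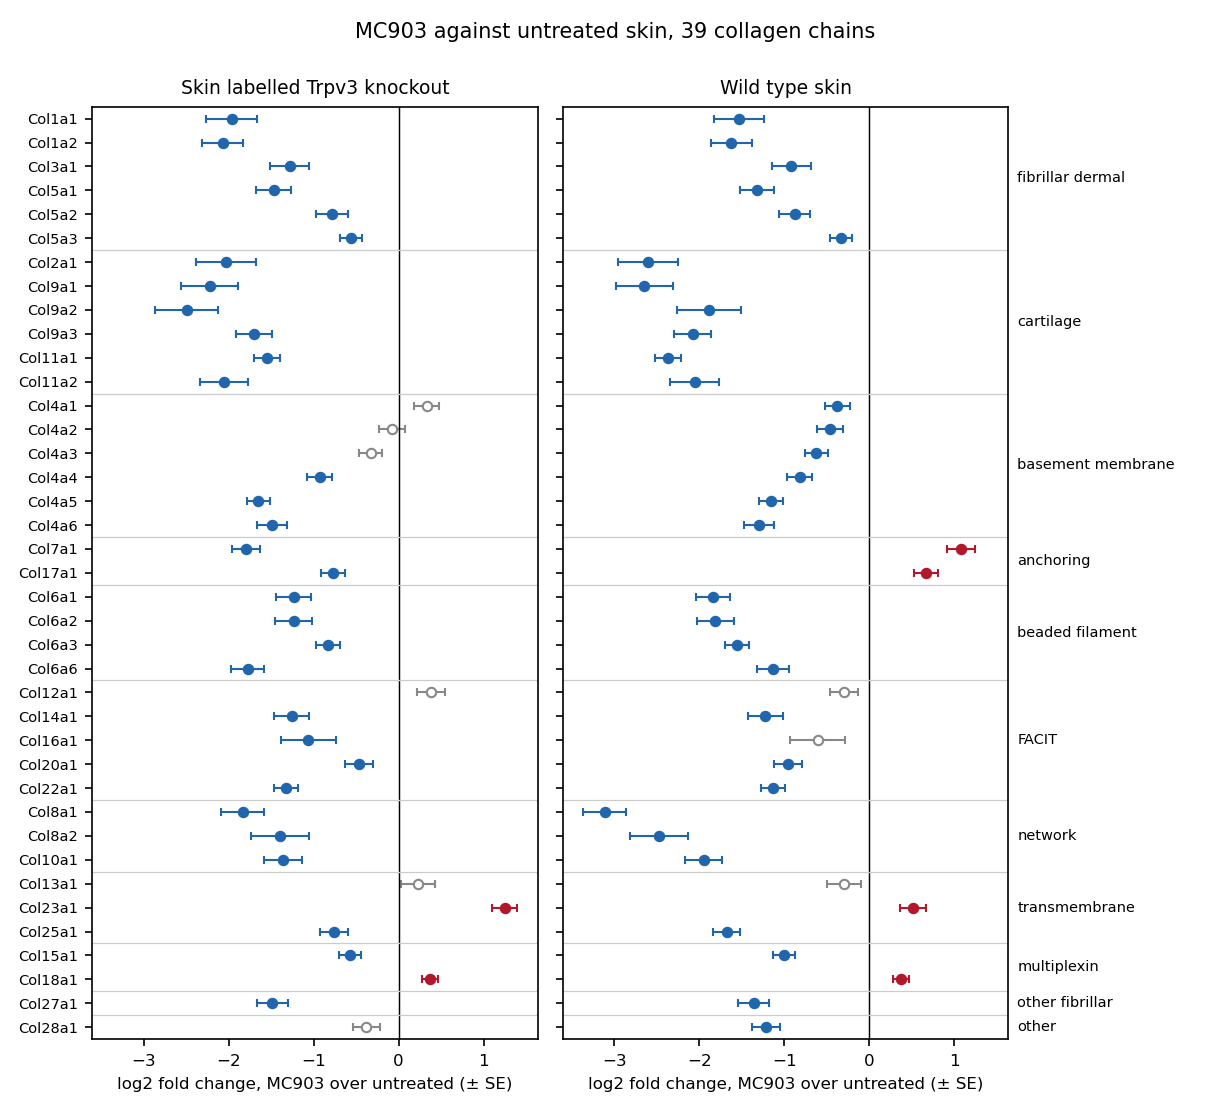
Log2 fold change of MC903 over untreated skin, with its SE as bars, for the 39 chains tested, in skin labelled knockout (left) and in wild type skin (right). Filled points passed at a limma adjusted p below 0.05, red for higher and blue for lower, and open grey points did not; most chains lie left of 0 in both panels, while Col7a1 and Col17a1 lie left of 0 in skin labelled knockout and right of 0 in wild type.

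Type I collagen is built from Col1a1 and Col1a2 and is the bulk of dermal fibrils. Col1a1 (ENSMUSG00000001506, chromosome 11, 94936224 to 94953042) had an FPKM of 459, 338 and 434 in MC903 skin labelled knockout, 1519, 1526 and 1727 in untreated skin labelled knockout, 91.8, 118 and 77.5 in MC903 wild type and 277, 166 and 449.8 in untreated wild type. The libraries labelled knockout lay above wild type both after MC903 and untreated, MC903 lay below untreated in each genotype, and untreated wild type varied most. Its log2 fold change for the genotypes was 2.10 ± 0.30 (limma adjusted p = 0.00017) after MC903 and 2.53 ± 0.30 (limma adjusted p = 0.0011) untreated, a 5.77-fold difference. The MC903 change was -1.96 ± 0.30 (limma adjusted p = 0.0003) in skin labelled knockout and -1.54 ± 0.30 (limma adjusted p = 0.00085) in wild type. Col1a2 (chromosome 6, 4504814 to 4541544) followed the same order of groups, with 234, 178 and 231 FPKM in MC903 and 845, 859.6 and 989 in untreated skin labelled knockout, and 61.1, 76.9 and 55.4 in MC903 and 201, 133 and 288 in untreated wild type. It fell after MC903 in skin labelled knockout (-2.07 ± 0.24, limma adjusted p = 5.4e-05) and in wild type (-1.62 ± 0.24, limma adjusted p = 0.00013). Its genotype difference was 1.73 after MC903 and 2.18 untreated, and that of Col3a1 was 1.95 and 2.31, all past the threshold.

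Col3a1 encodes type III collagen, the chain of finer fibrils in young and healing dermis. It read 515, 467 and 643 FPKM in MC903 and 1239.5, 1247 and 1436 in untreated skin labelled knockout, and 129.8, 155 and 132 in MC903 and 286, 173 and 364 in untreated wild type. No groups overlapped within these pairs, and the fall with MC903 was -1.28 ± 0.23 (limma adjusted p = 0.00097) in skin labelled knockout and -0.92 ± 0.23 (limma adjusted p = 0.0047) in wild type. The type V chains, which sit inside type I fibrils and set their thickness, fell with MC903 in both genotypes. Col5a1 averaged 36.8 ± 4.36 FPKM in MC903 and 103 ± 8.19 in untreated skin labelled knockout, and 11.2 ± 1.40 in MC903 and 29.8 ± 10.5 in untreated wild type. For MC903 in skin labelled knockout the log2 fold changes of Col5a1, Col5a2 and Col5a3 were -1.47, -0.78 and -0.56 (limma adjusted p = 0.00018, 0.0048 and 0.0052). In wild type they were -1.32, -0.88 and -0.33 (limma adjusted p = 0.00017, 0.0015 and 0.049). The call of Col5a3 in wild type was at the threshold, on groups that overlapped (7.29 to 8.41 FPKM after MC903 and 8.0 to 11 untreated), and 13 alternatives lost it (highest limma adjusted p 0.15). Between genotypes in untreated skin all of them were higher in skin labelled knockout (1.82, 1.46 and 1.03), and likewise after MC903 (1.67, 1.55 and 0.80).

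**Figure D4:**
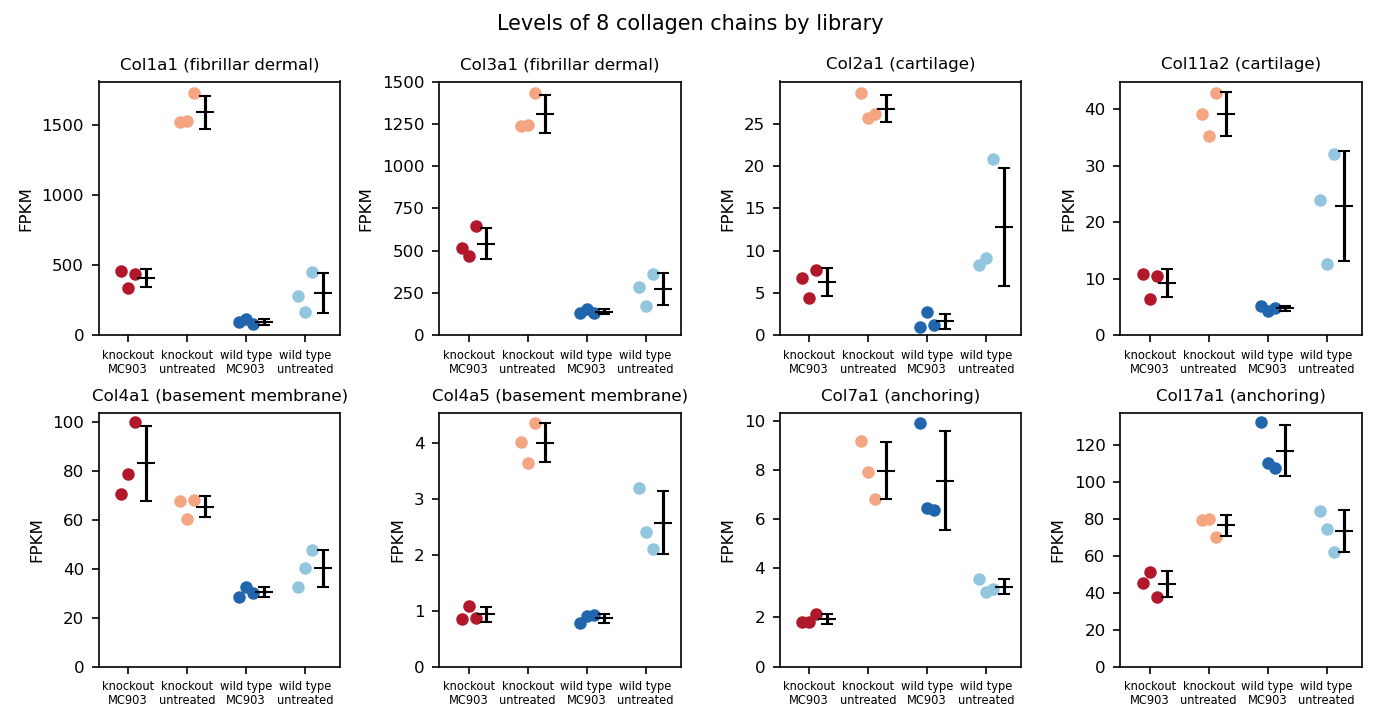
FPKM of 8 chains in each library (points, 3 per group, linear axes from 0), with the mean and SD of each group as a black bar, groups from left to right being MC903 and untreated skin labelled knockout, then MC903 and untreated wild type. Col1a1, Col3a1, Col2a1 and Col11a2 are highest in untreated skin labelled knockout, Col4a1 is highest in MC903 skin labelled knockout, and Col7a1 and Col17a1 are lowest there.

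Non-collagen fibroblast markers (Pdgfra, Dcn, Lum, Dpt, Mfap5, Fbln1, Pi16 and Vim) were read beside the fibrillar chains. Their summed level was 1572 to 1772 FPKM in untreated skin labelled knockout and 1289 to 1799 in untreated wild type, ranges that overlap, while the fibrillar dermal chains summed to 3804 to 4370.2 FPKM in untreated skin labelled knockout and 527 to 1194 in untreated wild type. After MC903 the markers summed to 1218 to 1444 in skin labelled knockout and 485 to 557 in wild type, and the chains to 1069 to 1419.7 in skin labelled knockout and 297 to 388 in wild type. The ratio of the sums was 1.01, 0.877 and 0.983 in MC903 and 2.37, 2.43 and 2.47 in untreated skin labelled knockout, and 0.650, 0.704 and 0.534 in MC903 and 0.638, 0.398 and 0.664 in untreated wild type. It was thus highest in untreated skin labelled knockout, and in wild type the MC903 and untreated libraries overlapped. Dcn and Vim carried most of the marker sum, at 607 ± 53.3 and 454 ± 33.2 FPKM in untreated skin labelled knockout. In untreated wild type they stood at 569.8 ± 125 and 494 ± 58.9. Lum did not overlap between these groups, at 260 ± 25.3 in skin labelled knockout and 140 ± 15.8 in wild type, so the sum does not speak for each marker. Of the 8 markers 1 was higher and 0 lower in untreated skin labelled knockout against wild type, 6 higher and 0 lower after MC903, 3 lower and 1 higher with MC903 in skin labelled knockout, and 6 lower and 1 higher with MC903 in wild type. Over all genes 7.15% were higher and 4.55% lower in the first of these comparisons, and 25.9% and 26.1% in the second. With MC903 23.0% of all genes were lower and 25.0% higher in skin labelled knockout, and 30.3% and 32.6% in wild type. None of the 8 markers was at 0 in any library. The median of the list was 0.37 between the untreated genotypes and 1.03 after MC903. The part that fibroblast number had in the values of the fibrillar chains was not tested for any comparison.

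**Figure D5:**
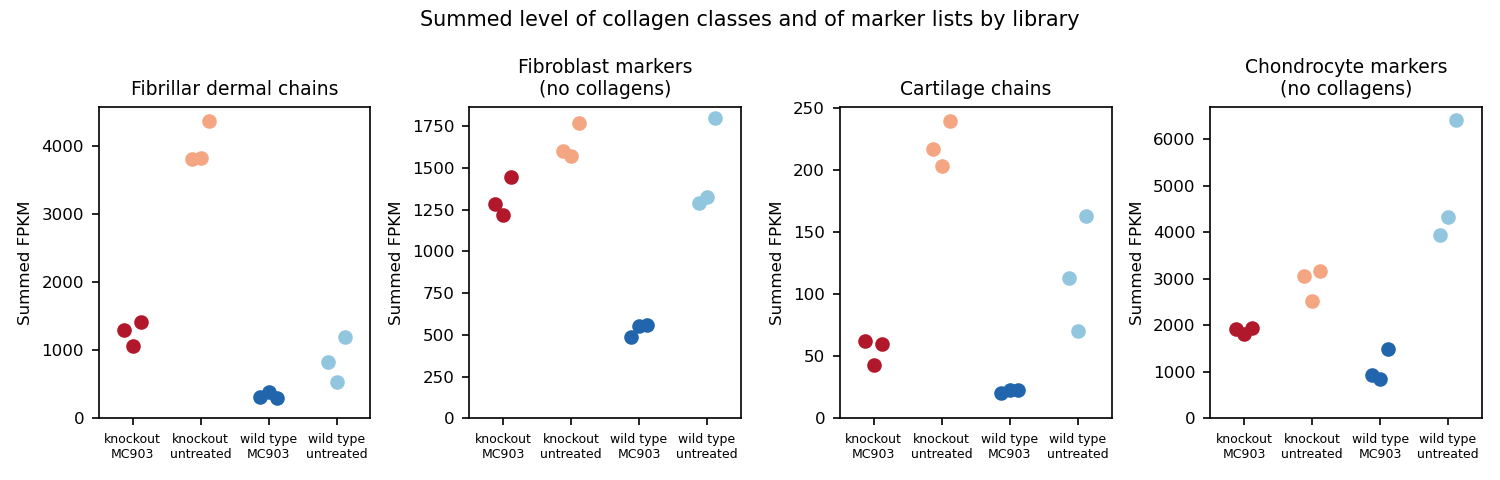
Summed FPKM per library (points, 3 per group, linear axes from 0) of the 6 fibrillar dermal chains, 8 fibroblast markers, 6 cartilage chains and 12 chondrocyte markers, groups from left to right as MC903 and untreated skin labelled knockout, then MC903 and untreated wild type. In untreated skin labelled knockout both chain sums are above untreated wild type, the sums of fibroblast markers overlap, and the sum of chondrocyte markers, most of it Cytl1, is lower.

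Type II collagen, the main collagen of cartilage, is encoded by Col2a1 (chromosome 15, 97975602 to 98004695). It read 6.78, 4.44 and 7.69 FPKM in MC903 and 28.6, 25.6 and 26.1 in untreated skin labelled knockout, and 0.925, 2.69 and 1.26 in MC903 and 8.29, 9.16 and 20.8 in untreated wild type. MC903 libraries lay below untreated ones in each genotype (-2.03 ± 0.35, limma adjusted p = 0.00078 in skin labelled knockout and -2.61 ± 0.35, limma adjusted p = 6.8e-05 in wild type). The untreated genotypes did not overlap, and their difference did not pass (1.16 ± 0.35, limma adjusted p = 0.057), although it did in 5 alternatives. After MC903 Col2a1 was higher in skin labelled knockout (1.73 ± 0.35, limma adjusted p = 0.0019). Type IX molecules, which coat the surface of type II fibrils, are built from Col9a1, Col9a2 and Col9a3. With MC903 their log2 fold changes were -2.22, -2.49 and -1.70 in skin labelled knockout and -2.65, -1.89 and -2.08 in wild type, all past the threshold (limma adjusted p of 0.00098 or less). Col9a3 had the highest level of the cartilage chains, 18.1 ± 2.86 FPKM in MC903 and 59.7 ± 6.09 in untreated skin labelled knockout, and 8.16 ± 0.213 in MC903 and 37.7 ± 13.5 in untreated wild type. Col9a1 and Col9a2 were higher in untreated skin labelled knockout than in wild type (1.39 and 1.43, limma adjusted p = 0.024 and 0.031), and 7 and 5 alternatives lost these calls. Col9a2 stood at 17.5, 6.55 and 24.6 FPKM in untreated wild type, and without replicate 2 there its value was 0.90. Col9a3 did not pass untreated (0.72 ± 0.22, limma adjusted p = 0.056). After MC903 Col9a1 and Col9a3 were higher in skin labelled knockout (1.81 and 1.09, limma adjusted p = 0.001 and 0.0016), and Col9a2 was the cartilage chain that did not pass (0.83 ± 0.37, limma adjusted p = 0.082).

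Type XI collagen starts the thin fibrils of cartilage and is also found in small amounts elsewhere. Col11a1 averaged 8.75 ± 1.29 FPKM in MC903 and 26.4 ± 2.72 in untreated skin labelled knockout, and 2.39 ± 0.422 in MC903 and 14.4 ± 2.54 in untreated wild type. Its fall with MC903 was larger in wild type (-2.37 ± 0.15, limma adjusted p = 3e-07) than in skin labelled knockout (-1.55 ± 0.15, limma adjusted p = 2e-05), and that difference passed its own test (0.82 ± 0.22, limma adjusted p = 0.013). Skin labelled knockout was higher after MC903 (1.68 ± 0.15, limma adjusted p = 1.1e-05) and untreated (0.86 ± 0.15, limma adjusted p = 0.0073). Col11a2 fell in both, with a log2 fold change of -2.06 in skin labelled knockout and -2.06 in wild type and a difference of 0.00 ± 0.40. Between genotypes it passed after MC903 (0.85 ± 0.28, limma adjusted p = 0.026) and not untreated (0.85 ± 0.28, limma adjusted p = 0.076).

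Chondrocyte markers other than collagens were read beside these chains. The list of 12, led by Cytl1, summed to 1814 to 1950.1 FPKM in MC903 and 2525 to 3170.4 in untreated skin labelled knockout, and to 851 to 1493 in MC903 and 3947 to 6418 in untreated wild type. The cartilage proteoglycan Acan averaged 52.0 ± 2.68 and 119 ± 8.94 FPKM in MC903 and untreated skin labelled knockout, and 13.1 ± 0.402 and 103 ± 23.0 in MC903 and untreated wild type, while the cartilage matrix gene Matn1 did not exceed 0.081 FPKM in any library. Of the 11 markers tested 7 fell and 0 rose with MC903 in skin labelled knockout, and 9 fell and 0 rose in wild type. Between the untreated genotypes 2 were higher (Matn3 and Matn4) and 1 lower (Cytl1) in skin labelled knockout, and Acan did not pass (0.22 ± 0.14, limma adjusted p = 0.32). The median of the list there was 0.22. After MC903 10 of the 11 were higher and 0 lower in skin labelled knockout (median 1.06), the comparison in which 5 of 6 cartilage chains were higher. Among all genes tested 23.0% fell and 25.0% rose with MC903 in skin labelled knockout, and 30.3% and 32.6% in wild type. Between genotypes 7.15% of all genes were higher and 4.55% lower untreated, and 25.9% and 26.1% after MC903. Cytl1 carried most of the sum, at 1925 ± 247 FPKM in untreated skin labelled knockout and 3788 ± 915 in untreated wild type. Without it the other 11 markers summed to 882 to 1066 FPKM in untreated skin labelled knockout and 844 to 1590.5 in untreated wild type, ranges that overlap. The cartilage chains summed to 203 to 240.1 FPKM in untreated skin labelled knockout and 70.5 to 163 in untreated wild type. The part of cartilage in the samples was not tested for any of these comparisons. Osteoblast markers summed to between 0.592 and 5.94 FPKM over the 12 libraries.

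The basement membrane chains split by pair of genes. Col4a1 and Col4a2, the chains of nearly every basement membrane, were far more abundant than the other 4. Col4a1 read 70.6, 78.8 and 100.2 FPKM in MC903 and 67.9, 60.6 and 68.0 in untreated skin labelled knockout, and 28.6, 32.8 and 30.2 in MC903 and 32.6, 40.4 and 47.6 in untreated wild type. The 3 MC903 libraries labelled knockout were the highest of all, and MC903 wild type overlapped its untreated group. The change with MC903 was 0.33 ± 0.15 (limma adjusted p = 0.091) in skin labelled knockout and -0.38 ± 0.15 (limma adjusted p = 0.046) in wild type, and the difference between these passed (0.71 ± 0.21, limma adjusted p = 0.021). In wild type 11 alternatives lost the call, and the value was -0.25 without untreated wild type replicate 3. Col4a2, divergently transcribed from the same stretch, read 49.7, 54.7 and 66.8 FPKM in MC903 and 62.6, 54.3 and 63.2 in untreated skin labelled knockout, and 23.3, 26.1 and 23.6 in MC903 and 28.4, 31.2 and 43.3 in untreated wild type. It changed by -0.08 ± 0.15 (limma adjusted p = 0.69) in skin labelled knockout and by -0.47 ± 0.15 (limma adjusted p = 0.02) in wild type, and in wild type this was -0.29 and no longer called without untreated replicate 3. Between genotypes both were higher in skin labelled knockout after MC903 (1.42 and 1.20, limma adjusted p = 2.5e-05 and 8.4e-05) and untreated (0.71 and 0.82, limma adjusted p = 0.014 and 0.0086). The untreated calls of both ended when only these 2 groups were fitted.

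The remaining type IV chains build the basement membranes of particular tissues, Col4a5 with Col4a6 in skin and smooth muscle and Col4a3 with Col4a4 and Col4a5 in kidney. Col4a5 read 0.853, 1.09 and 0.869 FPKM in MC903 and 4.01, 3.64 and 4.35 in untreated skin labelled knockout, and 0.774, 0.897 and 0.922 in MC903 and 3.19, 2.41 and 2.10 in untreated wild type. MC903 libraries of the 2 genotypes overlapped and lay below all untreated ones (-1.65 ± 0.14, limma adjusted p = 5.7e-06 in skin labelled knockout and -1.15 ± 0.14, limma adjusted p = 2.6e-05 in wild type). Col4a4 fell in both as well (-0.93 and -0.82, limma adjusted p = 0.00049 and 0.00062), and so did Col4a6 (-1.49 and -1.30, limma adjusted p = 7.3e-05 and 7.9e-05), for which the filter favoured a fall. Col4a3 averaged 0.617 FPKM or less in every group, and it fell in wild type (-0.62 ± 0.14, limma adjusted p = 0.0021) and did not pass in skin labelled knockout (-0.33 ± 0.14, limma adjusted p = 0.07). Its fall in wild type is measured from the group through which it passed the filter, so the filter favoured that call. None of these 4 passed between the genotypes after MC903, with log2 fold changes of -0.22 to 0.07, and Col4a5 alone passed untreated (0.57 ± 0.14, limma adjusted p = 0.025), and 6 alternatives lost that call.

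Vessel markers were read beside Col4a1 and Col4a2, which endothelium and pericytes make in quantity. The 5 endothelial markers summed to 58.0 to 78.6 FPKM in MC903 and 49.9 to 54.9 in untreated skin labelled knockout, and to 27.7 to 30.4 in MC903 and 46.6 to 61.1 in untreated wild type. The 5 pericyte and smooth muscle markers summed to 138 to 179, 113 to 137, 49.8 to 58.6 and 152 to 165 in the same order of groups. In wild type 5 of 5 and 5 of 5 fell with MC903, and in skin labelled knockout 2 endothelial markers rose and 0 fell, while 2 pericyte and smooth muscle markers rose and 2 fell. After MC903 5 of 5 endothelial and 5 of 5 pericyte and smooth muscle markers were higher in skin labelled knockout (medians 1.11 and 1.42), as were Col4a1 and Col4a2. In untreated skin 0 endothelial markers were higher and 1 lower in skin labelled knockout, and of the pericyte and smooth muscle markers 1 was higher and 1 lower. For all genes the shares with MC903 were 30.3% falling and 32.6% rising in wild type, and 23.0% and 25.0% in skin labelled knockout. Between genotypes 25.9% of all genes were higher and 26.1% lower after MC903, and 7.15% and 4.55% untreated. The part of vessels in the values of Col4a1 and Col4a2 was not tested.

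Col7a1 encodes the anchoring fibrils that fasten the epidermal basement membrane to dermis. It read 1.82, 1.82 and 2.16 FPKM in MC903 skin labelled knockout and 9.17, 7.92 and 6.84 in untreated skin labelled knockout. In wild type it read 9.90, 6.44 and 6.36 after MC903 and 3.58, 3.02 and 3.17 untreated. None of the groups compared overlapped, with the MC903 libraries lowest of all in skin labelled knockout and above their untreated group in wild type. Col7a1 fell with MC903 in skin labelled knockout (-1.79 ± 0.16 on the log2 scale, limma adjusted p = 9.6e-06) and rose in wild type (1.08 ± 0.16, limma adjusted p = 0.00014), and the difference of the responses passed (-2.87 ± 0.23, limma adjusted p = 3.4e-05). Skin labelled knockout was lower after MC903 (-1.70 ± 0.16, limma adjusted p = 1.3e-05) and higher untreated (1.17 ± 0.16, limma adjusted p = 0.0023).

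Col17a1 encodes a membrane-spanning collagen of hemidesmosomes, the rivets of basal keratinocytes. Its FPKM was 45.2, 51.5 and 37.8 in MC903 and 79.6, 80.2 and 70.1 in untreated skin labelled knockout, and 133, 111 and 107 in MC903 and 84.5, 74.4 and 61.9 in untreated wild type. The untreated groups overlapped, and the MC903 groups lay below them in skin labelled knockout and above them in wild type. The change was -0.77 ± 0.14 (limma adjusted p = 0.0011) in skin labelled knockout and 0.67 ± 0.14 (limma adjusted p = 0.0016) in wild type, and their difference passed (-1.44 ± 0.20, limma adjusted p = 0.00038), as did the genotype difference after MC903 (-1.38 ± 0.14, limma adjusted p = 2.2e-05). The untreated genotype difference did not (0.07 ± 0.14, limma adjusted p = 0.8). With TPM scaling the rise in wild type was 0.19 and no longer passed.

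Keratinocyte markers moved with the anchoring chains in part. The basal keratin Krt5 averaged 559 ± 81.9 FPKM in MC903 and 695 ± 72.9 in untreated skin labelled knockout, and 2054 ± 512 in MC903 and 576 ± 65.2 in untreated wild type. Krt14, also a basal keratin, rose with MC903 in each genotype (1.62 in skin labelled knockout and 3.80 in wild type, limma adjusted p = 5.9e-05 and 5.3e-08). Krt15, a further basal keratin, went the other way in both. It averaged 33.5 ± 6.04 FPKM in MC903 and 274 ± 17.4 in untreated skin labelled knockout. In wild type Krt15 averaged 160 ± 38.5 after MC903 and 363 ± 77.4 untreated, while the anchoring chains rose there. Of the 6 markers 2 rose and 2 fell with MC903 in skin labelled knockout, 4 rose and 1 fell in wild type, and 5 were lower and 0 higher in skin labelled knockout after MC903. All 6 had a lower response in skin labelled knockout, against 19.7% of all genes. With MC903 25.0% of all genes rose and 23.0% fell in skin labelled knockout, and 32.6% and 30.3% in wild type. Lower in skin labelled knockout after MC903 were 26.1% of all genes, and higher 25.9%. None of the 6 markers was at 0 in any library, and the part of keratinocyte number or state in the anchoring chains was not tested.

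Type VI collagen forms beaded filaments around cells, from Col6a1, Col6a2 and one of several larger chains. Col6a1, at 149 ± 12 FPKM in MC903 and 352 ± 25.7 in untreated skin labelled knockout, and 42.5 ± 2.36 in MC903 and 160.2 ± 57.9 in untreated wild type, was by its mean the most abundant chain outside dermal fibrils in all groups but MC903 wild type, where Col17a1 was. Col6a1, Col6a2 and Col6a3 changed by -1.24, -1.24 and -0.84 with MC903 in skin labelled knockout and by -1.84, -1.81 and -1.56 in wild type, all past the threshold. The larger chain Col6a6 was rarer, at 0.798 ± 0.176 FPKM in MC903 and 3.96 ± 0.698 in untreated skin labelled knockout, and 0.414 ± 0.140 in MC903 and 1.52 ± 0.447 in untreated wild type, and it fell in both (-1.78 and -1.13). The smaller fall of Col6a3 in skin labelled knockout passed the test of the difference (0.72 ± 0.20, limma adjusted p = 0.015). Between genotypes all 4 were higher in skin labelled knockout, by 0.51 (Col6a6) to 2.03 (Col6a3) after MC903 and by 1.15 (Col6a6) to 1.32 (Col6a2) untreated. The short-chain network collagens Col8a1 and Col8a2, found around vessels, were also abundant. Col8a1 read 103, 76.7 and 94.7 FPKM in MC903 and 331, 282 and 368 in untreated skin labelled knockout, and 12.1, 20.9 and 17.8 in MC903 and 123, 118 and 220.3 in untreated wild type. Its fall in wild type (-3.11 ± 0.25, limma adjusted p = 1.4e-06) had the lowest log2 fold change of any chain in that comparison, and it exceeded the fall in skin labelled knockout (-1.83 ± 0.25, limma adjusted p = 0.00017; difference 1.28 ± 0.36, limma adjusted p = 0.015). Col8a2 averaged 17.6 ± 1.83 FPKM in MC903 and 47.2 ± 7.79 in untreated skin labelled knockout, and 4.07 ± 0.203 in MC903 and 28.9 ± 20.6 in untreated wild type. It fell in both genotypes (-1.39 and -2.47), and its untreated genotype difference did not pass (0.90 ± 0.34, limma adjusted p = 0.12). After MC903 Col8a1, Col8a2 and Col10a1 were higher in skin labelled knockout (2.42, 1.98 and 1.53), and untreated Col8a1 and Col10a1 were (1.14 and 0.95). Col10a1, known from hypertrophic cartilage, fell in both genotypes (-1.36 and -1.95). It lies wholly within the span of Nt5dc1 on the other strand, and whether counting used strand is not given in the sources used here, so reads of the 2 genes may not be separated.

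A few chains rose with MC903. The transmembrane chain Col23a1 read 12.4, 14.4 and 19.3 FPKM in MC903 and 5.85, 6.13 and 6.26 in untreated skin labelled knockout, and 10.6, 8.56 and 7.86 in MC903 and 5.52, 6.65 and 6.14 in untreated wild type. MC903 libraries lay above untreated ones in each genotype (1.25 ± 0.15, limma adjusted p = 7.6e-05 in skin labelled knockout and 0.52 ± 0.15, limma adjusted p = 0.011 in wild type), more so in skin labelled knockout (0.73 ± 0.21, limma adjusted p = 0.02). In wild type the value was 0.070 with TPM scaling and no longer passed. Col18a1, whose end yields the vessel inhibitor endostatin, averaged 20.7 ± 1.33 in MC903 and 15.9 ± 0.810 FPKM in untreated skin labelled knockout, and 13.9 ± 0.526 in MC903 and 10.7 ± 1.44 in untreated wild type. Its log2 fold change was 0.37 in both, and with TPM scaling the sign turned in wild type (-0.091) and the call in skin labelled knockout ended (0.18). Its relative Col15a1, of muscle and vessel basement membranes, fell (-0.58 and -1.0). Col18a1 and Col15a1 were higher in skin labelled knockout after MC903 (0.55 and 1.78) and untreated (0.55 and 1.36). Col12a1, which lies on the surface of fibrils under strain, passed in neither genotype (0.38 ± 0.17, limma adjusted p = 0.083 in skin labelled knockout and -0.30 ± 0.17, limma adjusted p = 0.14 in wild type). It stood at 14.3 to 19.0 FPKM in MC903 skin labelled knockout and 3.57 to 4.98 in MC903 wild type (1.84 ± 0.17, limma adjusted p = 1e-05), and untreated it was also higher in skin labelled knockout (1.16 ± 0.17, limma adjusted p = 0.0028).

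Fibril-associated and rarer chains mostly fell with MC903. The fibril-associated Col14a1 fell in both genotypes (-1.26 and -1.22), as did Col22a1 of muscle-tendon junctions (-1.32 and -1.13) and the fibrillar Col27a1 of cartilage (-1.49 and -1.36). Col16a1 averaged 25.3 ± 0.551 FPKM in MC903 and 53.5 ± 6.57 in untreated skin labelled knockout (-1.06 ± 0.32, limma adjusted p = 0.019). In wild type it averaged 12 ± 1.91 after MC903 and 21.1 ± 14.1 untreated (-0.61 ± 0.32, limma adjusted p = 0.12), where replicate 3 stood at 37.3, replicate 1 at 14.0 and replicate 2 at 11.8. Col14a1 and Col16a1 were higher in skin labelled knockout after MC903 (1.22 and 1.06) and untreated (1.26 and 1.51), while Col22a1 and Col27a1 passed in neither. Col25a1, a transmembrane chain that developing muscle needs for its nerve supply, averaged 0.356 ± 0.101 FPKM in MC903 and 0.947 ± 0.127 in untreated skin labelled knockout, and 0.0968 ± 0.0589 in MC903 and 1.42 ± 0.296 in untreated wild type. It fell in both (-0.76 and -1.68), falls that the filter favoured, and its response differed between genotypes (0.92 ± 0.23, limma adjusted p = 0.0089). After MC903 Col23a1, Col25a1 and Col28a1 were higher in skin labelled knockout (0.73, 0.52 and 0.86). Col28a1, a chain of peripheral nerve, fell in wild type (-1.22 ± 0.16, limma adjusted p = 5.4e-05) and did not pass in skin labelled knockout (-0.38 ± 0.16, limma adjusted p = 0.073), and the difference passed (0.84 ± 0.23, limma adjusted p = 0.013). The 5 Schwann cell markers summed to 108 to 118 FPKM in MC903 and 255 to 276 in untreated skin labelled knockout, and to 40.2 to 49.1 in MC903 and 325 to 397 in untreated wild type. The part of nerve in the change of Col28a1 was not tested. Col13a1, a chain of the nerve-muscle synapse, and Col20a1 stayed at or below 2.16 FPKM in every library, and Col13a1 was higher in MC903 skin labelled knockout than in MC903 wild type (0.61 ± 0.20, limma adjusted p = 0.025). Col20a1 fell with MC903 in skin labelled knockout (-0.46 ± 0.17, limma adjusted p = 0.039), a call that 7 alternatives lost, and in wild type (-0.95 ± 0.17, limma adjusted p = 0.00043).

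Whether chains answered MC903 differently in the genotypes was tested directly. Of the 39 chains 8 had a higher log2 response in skin labelled knockout and 2 a lower one, against 20.0% and 19.7% of all genes, and 39.7% in either direction, so the share called higher was near that of all genes. The 2 lower ones were Col7a1 and Col17a1. None of the 6 fibrillar dermal chains passed, with differences of -0.45 to 0.09 at an SE of 0.19 to 0.42. By limma 0 of them had an unadjusted p below 0.05, and 0 passed with limma voom. The cartilage chains other than Col11a1 ranged from -0.60 to 0.57, and the basement membrane chains other than Col4a1 from -0.49 to 0.39, and these did not pass. The 8 higher ones were Col4a1, Col6a3, Col8a1, Col11a1, Col12a1, Col23a1, Col25a1 and Col28a1. With TPM scaling 15 were called higher.

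Partner chains were compared as ratios of FPKM within a library, as a description. Col1a1 over Col1a2 was 1.96, 1.89 and 1.88 in MC903 and 1.80, 1.77 and 1.75 in untreated skin labelled knockout, and 1.5, 1.54 and 1.40 in MC903 and 1.38, 1.25 and 1.56 in untreated wild type. The 6 libraries labelled knockout lay above the 6 wild type ones. Col3a1 over Col1a1 was 1.12, 1.38 and 1.48 in MC903 and 0.816, 0.817 and 0.832 in untreated skin labelled knockout, and 1.41, 1.31 and 1.71 in MC903 and 1.03, 1.04 and 0.810 in untreated wild type, so that MC903 libraries held relatively more of type III. Col4a1 over Col4a2 was 1.42, 1.44 and 1.5 in MC903 and 1.08, 1.12 and 1.08 in untreated skin labelled knockout, and 1.23, 1.26 and 1.28 in MC903 and 1.15, 1.29 and 1.10 in untreated wild type. The 3 MC903 libraries labelled knockout were the highest of the 12. Col6a1 over Col6a2 stayed between 2.15 and 2.51 in all libraries.

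Genes that fold and hydroxylate procollagen were read from a list of 20. With MC903, 11 fell and 2 rose in skin labelled knockout (median -0.53), and 13 fell and 3 rose in wild type (-0.59). In skin labelled knockout 15 were higher and 1 lower than in wild type after MC903 (0.83), and 7 higher and 0 lower untreated (0.45). P4ha3 of this list reached 0.5 FPKM only in MC903 libraries, with at most 0.229 untreated, so the filter favoured its rise with MC903. Over all genes 23.0% fell and 25.0% rose with MC903 in skin labelled knockout, and 30.3% and 32.6% in wild type. Between genotypes 25.9% of all genes were higher and 26.1% lower after MC903, and 7.15% and 4.55% untreated. The collagen chaperone Serpinh1 averaged 96.9 ± 18.3 FPKM in MC903 and 170.2 ± 2.88 in untreated skin labelled knockout, and 43.9 ± 2.34 in MC903 and 76.6 ± 39.4 in untreated wild type. The transcription factor Creb3l1, which drives procollagen genes in bone, averaged 13.2 ± 1.70 and 31.6 ± 0.768 FPKM in MC903 and untreated skin labelled knockout and 3.68 ± 0.558 and 16.0 ± 6.31 in MC903 and untreated wild type. P4hb, a prolyl hydroxylase subunit that also serves other proteins, rose in both genotypes (0.58 and 0.77, limma adjusted p = 0.00071 and 4.8e-05). Colgalt2, which adds galactose to collagen, fell in both (-1.18 and -2.08), and so did the endoplasmic reticulum isomerase Fkbp14 (-0.67 and -1.60), which was higher in MC903 skin labelled knockout than in MC903 wild type (1.33 ± 0.16, limma adjusted p = 6.2e-05).

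Of the 7 propeptide cleavage genes tested 5 fell with MC903 in skin labelled knockout, and 6 fell and 1 rose in wild type. Here and for cross-linking, 23.0% of all genes fell in skin labelled knockout, and 30.3% fell and 32.6% rose in wild type. The enhancer of procollagen cleavage Pcolce2 fell less in skin labelled knockout (-1.0 ± 0.14, limma adjusted p = 0.0002) than in wild type (-2.56 ± 0.14, limma adjusted p = 1e-07; difference 1.56 ± 0.20, limma adjusted p = 0.00026). Bmp1, which cuts the carboxyl end of procollagens, was the gene that rose in wild type as deposited (0.57 ± 0.15, limma adjusted p = 0.0057). Its value with TPM scaling, which moved the median of all genes there by -0.38, was not read. Bmp1 was higher in untreated skin labelled knockout than in untreated wild type (1.01 ± 0.15, limma adjusted p = 0.0031). Among the 5 cross-linking enzymes 2 fell in skin labelled knockout and 4 in wild type. Loxl4 averaged 53.0 ± 7.21 FPKM in MC903 and 119 ± 15.6 in untreated skin labelled knockout, and 10.3 ± 1.35 in MC903 and 103 ± 13.7 in untreated wild type. Its fall was larger in wild type (difference 2.09 ± 0.20, limma adjusted p = 7.4e-05), as were those of Lox and Loxl2 (0.75 and 1.16, limma adjusted p = 0.0038 and 0.0022).

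Of the 9 collagen receptor and uptake genes tested 4 rose and 4 fell with MC903 in skin labelled knockout, and 2 rose and 4 fell in wild type. Between the untreated genotypes 0 passed by limma after adjustment, and 4 were higher and 1 lower at an unadjusted p below 0.05. Of all genes 47.9% were called with MC903 in skin labelled knockout, 63.0% in wild type and 11.7% between the untreated genotypes. The share of the list called in wild type was thus near that of all genes. Ddr1, the discoidin receptor of epithelia, fell in skin labelled knockout (-0.87 ± 0.13, limma adjusted p = 0.00036) and rose in wild type (0.49 ± 0.13, limma adjusted p = 0.0071), with a difference of -1.36 ± 0.19 (limma adjusted p = 0.00037). The integrin chain Itga1 rose in skin labelled knockout (0.90 ± 0.16, limma adjusted p = 0.00082) and fell in wild type (-0.95 ± 0.16, limma adjusted p = 0.0003). Lair1, a collagen receptor of leukocytes, rose in both (2.69 and 0.61). The rises of Ddr1 and Lair1 in wild type are as deposited. Their values with TPM scaling, which moved the median of all genes there by -0.38, were not read. Among 7 TGF-beta ligands, receptors and targets, Tgfb1 was higher in untreated skin labelled knockout (0.53 ± 0.12, limma adjusted p = 0.021). The target Ctgf (Ccn2) fell in wild type (-2.31 ± 0.19, limma adjusted p = 1.4e-06), did not pass in skin labelled knockout (-0.34 ± 0.19, limma adjusted p = 0.15), and did not pass between the untreated genotypes (-0.02 ± 0.19, limma adjusted p = 0.97). After MC903 it was higher in skin labelled knockout, at 283 ± 26.1 FPKM against 73.7 ± 14.9 in wild type (1.95 ± 0.19, limma adjusted p = 1.4e-05). Of the 7 genes 3 rose and 2 fell with MC903 in skin labelled knockout, 1 rose and 5 fell in wild type, 7 were higher in skin labelled knockout after MC903 (median 0.91) and 1 was higher untreated (0.07). Among all genes tested 25.0% rose and 23.0% fell with MC903 in skin labelled knockout, and 32.6% and 30.3% in wild type. Higher in skin labelled knockout were 25.9% of all genes after MC903 and 7.15% untreated.

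Markers of other tissues and cells in skin also moved with the groups. Of 6 skeletal muscle markers 6 fell with MC903 in skin labelled knockout and 2 in wild type, and 6 were lower in skin labelled knockout after MC903. Of 5 adipocyte markers 3 fell with MC903 in skin labelled knockout and 5 in wild type, and 5 were lower in untreated skin labelled knockout. Of 4 hair follicle markers tested 4 fell in skin labelled knockout and 1 in wild type. Among them Lef1 reached 0.5 FPKM only in untreated libraries, so the filter favoured its fall. In wild type the 4 log2 fold changes were -2.23 to -1.03, and the list of 5 summed to 1.27 to 94.6 FPKM in the untreated libraries there. With that spread the counts of the 2 genotypes cannot be set against each other. Of 4 macrophage markers 4 rose with MC903 in skin labelled knockout, while 1 rose and 1 fell in wild type, and 4 were higher in skin labelled knockout after MC903 and 3 untreated. Of 4 mast cell markers 3 rose with MC903 in skin labelled knockout and 3 fell in wild type. For all genes the shares with MC903 were 23.0% falling and 25.0% rising in skin labelled knockout, and 30.3% and 32.6% in wild type. Between genotypes 25.9% of all genes were higher and 26.1% lower after MC903, and 7.15% and 4.55% untreated. The part of these tissues and cells in the values of the chains was not tested.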

How the data were processed

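The authors deposited 1 table of gene-level FPKM for the 12 skin libraries. The build mm10 and the counter featureCounts come from the submitters' processing notes. Which aligner and annotation were used, and how FPKM was computed, is not given in the sources used here. Per the labels' protocols the RNA was poly-A selected and primed with random hexamers. Samples of dorsal root ganglion (3) were not analysed here. Positions of all 44 chains matched GENCODE M21.

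The deposited FPKM times gene length came out as whole reads, within a tolerance of 0.01 at fewer than 2000 reads, for 100% of values, and the implied denominators followed median-of-ratios size factors within 0.57%. The deposited values were therefore taken as scaled between libraries.

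Linear models over the 4 groups (limma 3.58.1 in R 4.3.3, eBayes with a mean trend, 8 residual degrees of freedom) were fitted to log2(FPKM + 0.5) of 17646 genes with an FPKM of at least 0.5 in at least 3 libraries. Tests were two-sided with Benjamini-Hochberg adjustment over all genes within each contrast. No list or score was tested. The procedure was tested on simulated data. The members and gene lists were chosen with earlier results of these data known. The rule was to name chains of the 4 main classes in every comparison, singly or by their range, other chains where they passed or averaged at least 10 FPKM in a group, and up to 4 genes of each processing list by adjusted p. The marker genes Krt5, Krt14, Krt15, Acan, Cytl1, Matn1, Matn3 and Matn4 were singled out with their values in view. The alternatives were other pseudocounts, filters and scalings, limma voom on recovered reads, a replicate block, fits of only the groups compared and leaving out each library. Python 3.11.15 with numpy 2.4.6, pandas 2.3.3 and matplotlib 3.10.9 was used.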

Additional observations from a re-analysis of the deposited data

Results flagged for a closer look

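The response to MC903 differed between the genotypes, by the interaction term of the limma fit, in 10 of 39 chains tested, a smaller share than the 39.7% of all genes called for that term. These values are the log2 response in skin labelled knockout minus that in wild type, and each genotype has 3 libraries per condition. It was lower in skin labelled knockout for Col7a1 (-2.87) and Col17a1 (-1.44), which fell there and rose in wild type. It was higher for Col8a1 (1.28), Col25a1 (0.92), Col28a1 (0.84), Col11a1 (0.82) and Col6a3 (0.72), all of which had a negative response in both. It was higher for Col23a1 (0.73), which rose in both. For Col4a1 (0.71) and Col12a1 (0.67) the response was positive and not called in skin labelled knockout. For Col12a1 11 alternatives lost the call (highest limma adjusted p 0.098), and for Col4a1 2 did (0.054).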

How the results depend on the processing

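The counts of chains kept their size within 1.5 times in most alternatives. With TPM scaling the chains that rose with MC903 numbered 1 in skin labelled knockout and 1 in wild type, and those with a higher response in skin labelled knockout 15. With scaling by total reads 2 rose with MC903 in wild type. When only the 2 untreated groups were fitted 13 chains were higher in skin labelled knockout, and with a pseudocount of 1 the chains with a lower response there numbered 4. TPM scaling turned Col18a1 in wild type to -0.091. The causes were not tested. Listed genes other than the chains were read only as deposited, so their smaller rises with MC903 in wild type may depend on the scaling. Leaving out single libraries gave 2 to 4 chains rising and 29 to 32 falling in skin labelled knockout, 3 to 4 and 29 to 33 in wild type, 25 to 30 higher and 2 lower in skin labelled knockout after MC903, 17 to 28 higher and 0 lower untreated, and 6 to 12 higher and 2 to 4 lower responses. The 4 rising chains came without replicate 1 of MC903 skin labelled knockout, and the 4 lower responses without untreated wild type replicate 1 or 3. For single chains 3875 of the 4046 comparisons with an alternative kept both direction and call. Same-numbered libraries correlated by -0.13 to 0.14 in their deviations from group means, and each MC903 library labelled knockout correlated best with its own number among the untreated. With groups of 3 these values cannot decide whether replicate numbers pair libraries, and the main fit did not pair them. With replicate number as a block 2 rose and 30 fell in skin labelled knockout, 4 and 31 in wild type, 29 were higher and 2 lower after MC903, 26 higher and 0 lower untreated, and 7 higher and 2 lower responses. Chains of a few reads, such as Col19a1, lie below what this depth can compare.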
